A study of Mus musculus with 2 samples.

Results

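An imprinted gene is expressed wholly or mainly from the copy inherited from 1 parent, in at least some tissues. The genes described here are known as imprinted, and their RNA was counted in the newborn mouse cerebral cortex. They were taken from a list of 32 gene symbols, which was drawn up by imprinting and not by a threshold on these values, though with earlier results of the data known. Of these, 31 were among the 27998 genes of the count tables. The remaining gene, Rian, was absent from them and entered only the promoter windows below. All 31 had at least 1 unique molecular identifier (UMI, the tag that marks 1 captured RNA molecule) in each library, and 27 in WT and 25 in cKO had at least 100. The study dissociated cerebral cortex from C57BL/6 mice at postnatal day 0 and sequenced single cells on the 10x Genomics Chromium platform. There were 2 libraries, a WT library and a library of STINGf/f;Nestin-Cre mice (cKO), in which Cre is driven by the Nestin promoter of neural progenitors and deletes the floxed gene of STING, a sensor adaptor of innate immunity, in the neural lineage. The labels call the control WT, while the study's text on these libraries uses both STINGfl/fl and wild type for it. How many animals entered each library is not given in the sources used here. With 1 library per genotype there are no replicates, so every difference between the libraries has no replicate check, no test was run, and the intervals given cover counting error only.

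Imprinting is set in the germ line, where DNA methylation marks differently methylated regions in the egg or the sperm, and each mark then silences or permits a cluster of neighbouring genes on that parental copy. Many paternally expressed genes, such as Igf2, Dlk1 and Peg3, are known for promoting growth, and several maternally expressed ones, such as Cdkn1c and H19, for restraining it. The brain is known for a large number of imprinted transcripts, and loss of the Snrpn to Ube3a cluster underlies Prader-Willi and Angelman syndromes in humans. The count tables hold no allele counts, so the parental copies cannot be told apart here, and only the total RNA of each gene was measured.

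The 31 genes lie on 8 chromosomes, 15 of them on chromosome 7 (GENCODE M21, GRCm38). RefSeq promoter windows of 300 bases (GRCm38.p6, from 250 bases before to 50 after a start) were available for 27 of the 32 genes on the list. In the window of each gene that is richest in CpG, the dinucleotide whose cytosine carries the imprint, the list had a median of 13 CpG against 8 over 27025 genes. The letters TGCCGC, on either strand, are the core that the imprint-keeping protein ZFP57 is known to bind when methylated. They occurred in the window of 8 genes on the list, and in 12.2% of all genes. The windows of 5 genes are printed because the vascular, neuronal and library results below turn on these genes, and CpG is in capitals. They are Igf2 (chr7:142658755-142659054, minus strand, 24 CpG), Dlk1 (chr12:109452573-109452872, plus strand, 9 CpG), Meg3 (chr12:109540746-109541045, plus strand, 13 CpG), Nnat (chr2:157559828-157560127, plus strand, 17 CpG) and Mest (chr6:30737800-30738099, plus strand, 17 CpG).
Igf2: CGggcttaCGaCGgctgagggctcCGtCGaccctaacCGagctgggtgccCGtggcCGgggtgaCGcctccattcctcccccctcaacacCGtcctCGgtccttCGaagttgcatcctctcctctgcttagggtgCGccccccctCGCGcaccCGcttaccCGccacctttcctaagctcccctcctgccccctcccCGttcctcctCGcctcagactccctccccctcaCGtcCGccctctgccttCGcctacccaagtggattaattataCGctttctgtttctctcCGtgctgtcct
Dlk1: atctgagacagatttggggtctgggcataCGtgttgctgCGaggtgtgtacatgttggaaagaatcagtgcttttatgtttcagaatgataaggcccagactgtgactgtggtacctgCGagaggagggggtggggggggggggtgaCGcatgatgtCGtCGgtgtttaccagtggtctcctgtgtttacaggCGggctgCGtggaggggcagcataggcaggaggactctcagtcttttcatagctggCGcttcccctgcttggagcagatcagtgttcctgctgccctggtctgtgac
Meg3: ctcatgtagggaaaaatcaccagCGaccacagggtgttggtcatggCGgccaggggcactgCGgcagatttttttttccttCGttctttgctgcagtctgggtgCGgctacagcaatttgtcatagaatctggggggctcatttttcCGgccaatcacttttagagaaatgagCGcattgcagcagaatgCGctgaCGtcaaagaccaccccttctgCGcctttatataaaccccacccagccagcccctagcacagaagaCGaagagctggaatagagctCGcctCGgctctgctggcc
Nnat: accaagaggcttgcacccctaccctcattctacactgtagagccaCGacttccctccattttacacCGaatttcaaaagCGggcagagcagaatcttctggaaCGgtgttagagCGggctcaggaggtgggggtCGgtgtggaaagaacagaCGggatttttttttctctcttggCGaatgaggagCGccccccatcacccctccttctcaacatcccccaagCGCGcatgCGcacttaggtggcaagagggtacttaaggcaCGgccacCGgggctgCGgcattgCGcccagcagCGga
Mest: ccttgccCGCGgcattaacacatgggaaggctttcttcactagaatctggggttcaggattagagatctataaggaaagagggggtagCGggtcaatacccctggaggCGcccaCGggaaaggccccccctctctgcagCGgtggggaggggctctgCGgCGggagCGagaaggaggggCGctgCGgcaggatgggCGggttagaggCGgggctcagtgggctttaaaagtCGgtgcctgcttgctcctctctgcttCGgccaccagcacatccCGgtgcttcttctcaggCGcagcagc
TGCCGC was found in the windows of Mest, Meg3 and Nnat, and not in those printed for Igf2 and Dlk1, while another of the 4 Igf2 windows holds it. Methylation was not measured.

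The WT library kept 6400 of 10715 barcodes and the cKO library 5784 of 9198 once cells of low quality and likely doublets were left out. The barcodes held 69554624 and 67448785 UMIs. The libraries shared 19 barcodes. Cells were placed in groups by UMIs of marker genes, and these gates were set after seeing the data. The 8 neural groups were projection neurons (2458 WT and 2616 cKO cells), GABAergic neurons (1290 and 1102), Cajal-Retzius cells (59 and 60), intermediate progenitors (128 and 138), cycling progenitors (398 and 212), radial glia/astrocytes (606 and 465), oligodendrocyte progenitors (OPC, 276 and 141) and ependymal cells (42 and 20). Cells that also passed the radial glia/astrocyte gate stayed in OPC, and those that also passed the projection neuron gate stayed in intermediate progenitors. Cells that passed the cycling gate were placed in cycling progenitors whatever other neural gate they passed, except that of projection neurons. The vascular groups were endothelial cells (86 and 39), mural cells, the pericytes and smooth muscle of vessel walls (22 and 20), and cells with markers of both (61 and 19). The latter had a median of 22482 WT and 26168 cKO UMIs per cell, above the 7147.5 and 9070.0 of endothelial and the 4611 and 5852 of mural cells. The mural group also held UMIs of 6 (WT) and 7 (cKO) of 11 fibroblast markers, at a summed 1165 and 1484 CPM, the usual unit of UMIs of a gene scaled to the same UMI total in every group. There were 53 and 24 microglia/macrophages, while 194 and 105 cells with markers of several groups and 721 and 817 cells with too few markers were left ungrouped. The targeted gene, Tmem173 (STING), had 16 WT UMIs and 1 cKO UMI in neural cells, 66 and 7 in vascular cells, and 19 and 3 in microglia/macrophages. The libraries also differed in ways that the genotype labels do not describe. Xist, the noncoding RNA of X inactivation in females, had 10 WT and 67737 cKO UMIs over all kept cells. The gene Isl1, which marks neurons of the ventral forebrain, was at 97.4 and 39.9 CPM in GABAergic neurons. Genotype cannot be told apart from these differences in any comparison of the libraries, and their part in the results was not tested.

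The list as a whole held 0.658% of all UMIs in WT and 0.625% in cKO. Meg3, Nnat and Gnas made up 76.2% of these in WT and 78.4% in cKO. The genes followed no single pattern across cell groups. Igf2 and Dlk1 were highest in mural cells, Meg3, Snrpn, Ndn and Ube3a in Cajal-Retzius cells, Nnat in GABAergic neurons and Nap1l5 in OPC, each in both libraries and with an interval apart from that of the next group. UMIs mark the 3′ end of a transcript and are not divided by length, so levels were compared between groups for each gene and not between genes.

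**Figure D1:**
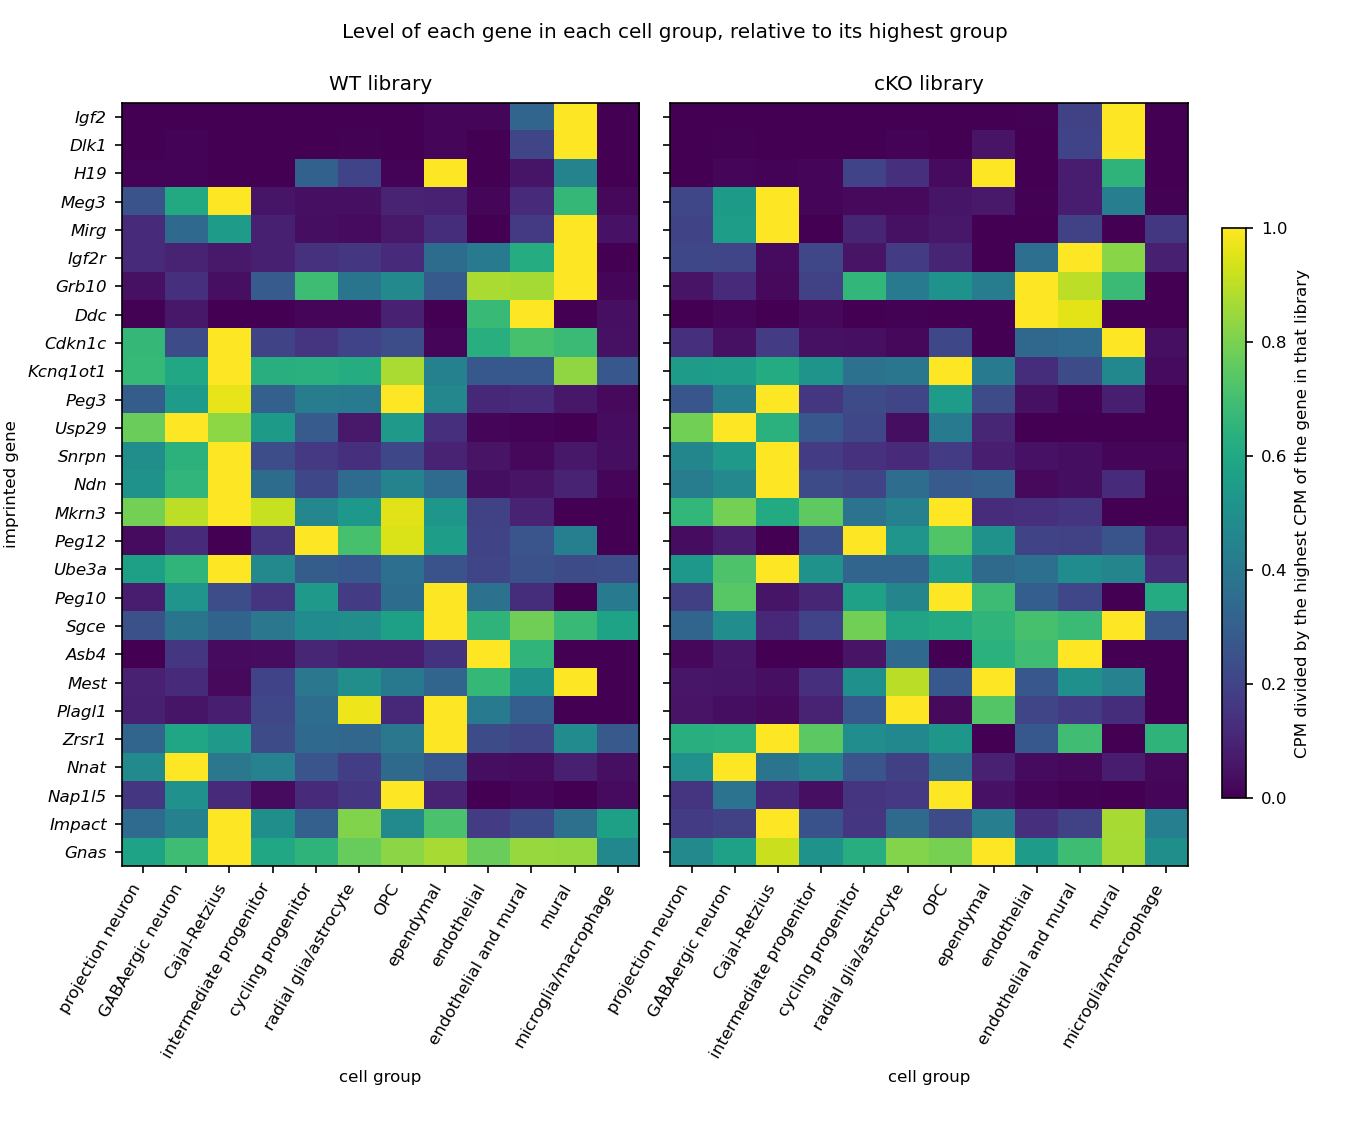
Level of each imprinted gene in each cell group, as CPM divided by the highest CPM of that gene in the same library, with WT on the left and cKO on the right. The bright cells move from the mural column for Igf2 and Dlk1 to the Cajal-Retzius column for Meg3, Snrpn and Ndn and to the OPC column for Nap1l5.

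Igf2, a secreted growth factor, and Dlk1, a transmembrane relative of the Notch ligands, were found mainly in cells with mural markers. Igf2 was at 435 CPM (interval 316 to 583, 44 UMIs) in WT mural cells and 535 CPM (410 to 688, 61 UMIs) in cKO mural cells. In cells with endothelial and mural markers it was at 141 and 103 CPM, in endothelial cells at 5.69 and 2.34 CPM (6 UMIs and 1 UMI), and over all neural cells at 0.249 and 0.153 CPM (11 and 7 UMIs). Both groups with mural markers held 277 of the 294 Igf2 UMIs of grouped WT cells (94.2%) and 122 of 130 in cKO (93.8%). Dlk1 was at 681 CPM (530 to 862, 69 UMIs) in WT and 632 CPM (495 to 796, 72 UMIs) in cKO mural cells. It had 0 UMIs in endothelial cells and in microglia/macrophages of both libraries. A single WT mural cell held 27 of the 69 UMIs. Unlike Igf2, Dlk1 also had a low level in neural groups, at 5.42 and 4.80 CPM in GABAergic neurons, 4.59 and 7.16 CPM in radial glia/astrocytes and 12.8 and 34.5 CPM in ependymal cells. The groups with mural markers thus held 79.4% of grouped Dlk1 UMIs in WT and 62.7% in cKO.

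Of the 22 WT mural cells, 15 had an Igf2 UMI, 15 a Dlk1 UMI and 11 both. Of the 20 cKO mural cells, 18 had an Igf2 UMI, 16 a Dlk1 UMI and 15 both, but with both genes this common no association between them can be read from the overlap. After each cell was thinned to 1000 UMIs, Igf2 was seen in 10 of 21 WT mural cells (interval 25.7 to 70.2%) and 10 of 20 cKO mural cells (27.2 to 72.8%), against 68.2% and 90.0% before thinning. It was seen in 0 of 52 WT microglia/macrophages, which allows up to 5.77% of cells with a UMI at that depth, and in 0 of 24 in cKO, which allows up to 12.5%. These limits are for cells with a UMI and not for cells that express the gene. The median depth of these cells, 9530 and 12470 UMIs, was above that of the mural cells. All mural cells but 1, in WT, carried a UMI of at least 1 fibroblast marker, so that mural cells with and without such markers could not be compared, and the part of fibroblasts in the Igf2 and Dlk1 signal was not tested. In mural cells the log2 ratio of cKO to WT was 0.30 (-0.28 to 0.89) for Igf2 and -0.11 (-0.61 to 0.39) for Dlk1, and no difference was detectable at this depth. In cells with both markers it was -0.46 (-0.89 to -0.05) for Igf2 and -0.16 (-0.55 to 0.22) for Dlk1. Whether these ratios differ between the groups was not tested. For all vascular cells, cKO over WT gave a log2 ratio of 0.09 (-0.23 to 0.40) for Igf2 and 0.25 (-0.05 to 0.53) for Dlk1. Mural cells held 3.61% of the vascular UMIs in WT and 10% in cKO, so a ratio over all vascular cells also moves with this makeup.

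**Figure D2:**
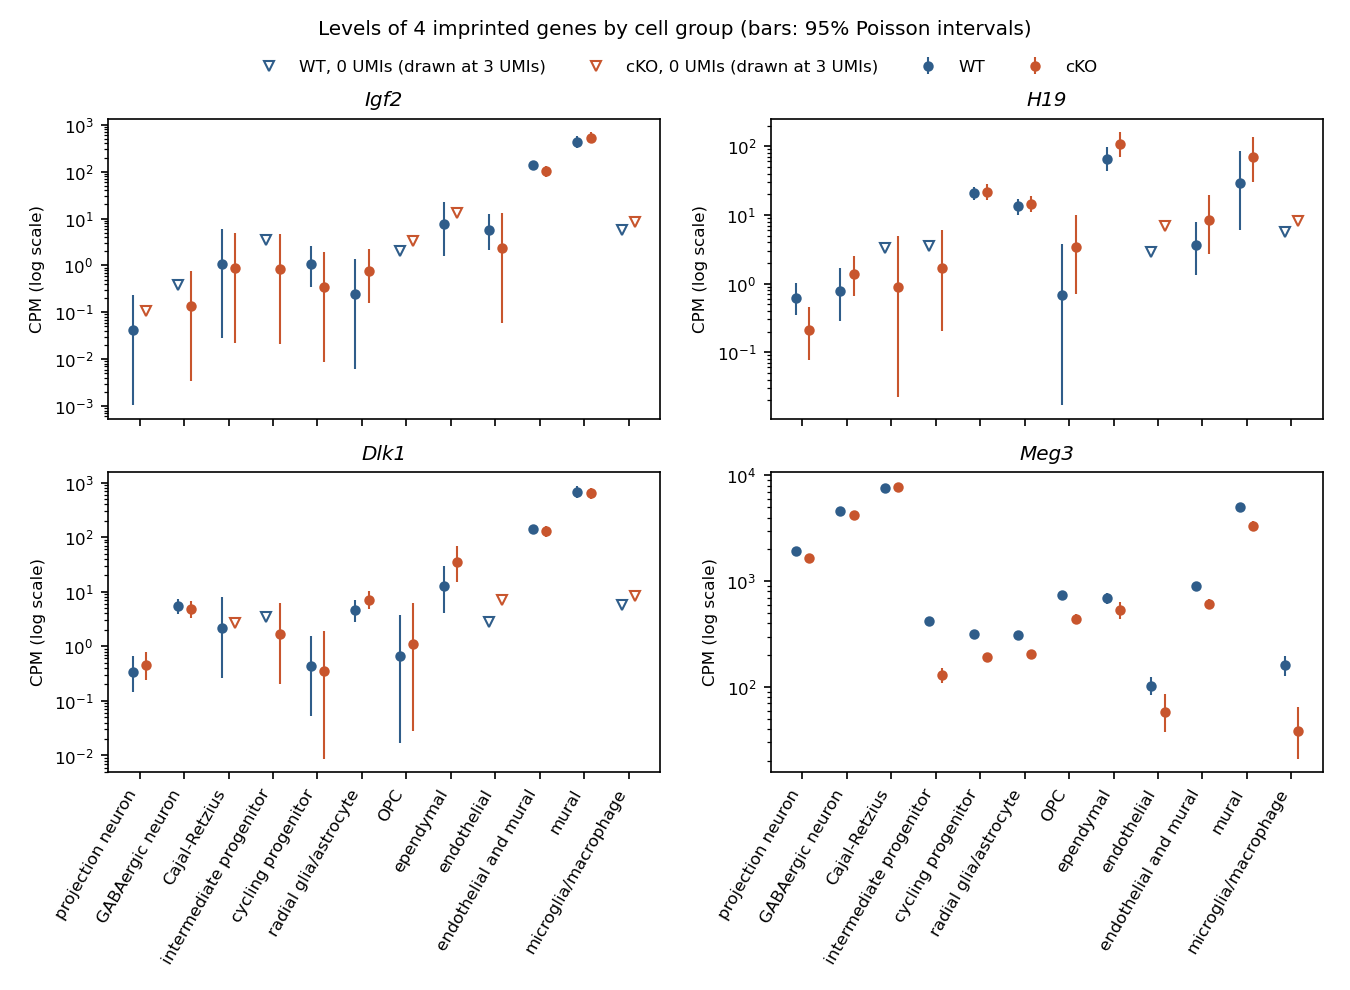
Levels of 4 imprinted genes by cell group in CPM on a log axis, with 95% Poisson intervals of counting, WT and cKO in separate colours, and open triangles where a group had 0 UMIs, drawn at the level of 3 UMIs. Igf2 and Dlk1 peak in the groups with mural markers, H19 is highest in ependymal cells, followed by mural cells with 3 and 8 UMIs, and Meg3 is high in neurons and mural cells.

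The receptors and adaptors of this growth pathway were spread more widely. Igf2r, the receptor that clears IGF2 from the cell surface, was at 43.8 WT and 23.5 cKO CPM in vascular and at 9.86 and 6.17 CPM in neural cells. These are 4.44-fold and 3.81-fold differences, the second of them short of the 4-fold used for a call below. Grb10, an adaptor that dampens signals of the insulin and IGF1 receptors, was at 94.8 and 103 CPM in endothelial cells and at 109 and 70.2 CPM in mural cells, and these intervals overlapped. Among neural groups it was at 74.8 and 67.9 CPM in cycling progenitors but only 4.88 and 5.53 CPM in projection neurons. Endothelial and mural cells both stood above projection neurons in each library, and 1 cKO endothelial cell held 15 of 44 UMIs.

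H19, the maternally expressed long noncoding RNA next to Igf2, had most of its UMIs in progenitors and radial glia. It was at 20.5 CPM (16.6 to 25.1, 94 UMIs) in WT and 21.8 CPM (16.8 to 27.9, 63 UMIs) in cKO cycling progenitors. In radial glia/astrocytes it was at 13.3 and 14.6 CPM (55 and 57 UMIs), and in endothelial cells at 0 UMIs. Mural cells gave 29.6 and 70.2 CPM, but from 3 and 8 UMIs in 2 cells of each library. The ependymal value was 66.3 CPM in WT and 108 CPM in cKO, where 1 WT cell supplied 15 of 26 UMIs. Plagl1, a zinc finger transcription factor that is known to act on other imprinted genes, was likewise higher in radial glia and ependymal cells than in neurons, but unlike H19 had endothelial UMIs (33 in WT and 12 in cKO). It was at 74.7 and 135 CPM in radial glia/astrocytes and 76.5 and 99.1 CPM in ependymal cells, against 6.71 and 7.33 CPM in projection neurons and 4.26 and 4.80 CPM in GABAergic neurons.

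Cdkn1c, the cyclin-dependent kinase inhibitor p57 that stops the cell cycle, was at 116 and 77.3 CPM in projection neurons and at 26.2 and 23.5 CPM in cycling progenitors. Its vascular levels were of the same size in WT, at 109 CPM in endothelial and 119 CPM in mural cells, and higher in cKO, at 187 and 562 CPM. The cKO mural value rested on 64 UMIs, of which 17 came from 1 cell, and the endothelial value on 80 UMIs, of which 26 came from 1 cell. Mest, a member of the alpha/beta hydrolase fold family, was at 221 and 83.6 CPM in vascular and 67.2 and 33.4 CPM in neural cells. Within neural cells it ran from 8.03 CPM in cKO Cajal-Retzius cells to 198 CPM in cKO ependymal cells, and radial glia/astrocytes were at 185 and 178 CPM. In WT, 1 cell held 112 of 263 endothelial and another 26 of 38 mural Mest UMIs.

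To compare vascular with neural cells, a gene was called where the difference was at least 4-fold in the same direction in each library, among genes with at least 20 UMIs over both groups in each library. Of 29 imprinted genes tested, 5 were higher in vascular cells and 6 lower. Over all 13850 genes tested, 8.33% were called higher in vascular cells and 10.4% lower, against 17.2% and 20.7% of the imprinted genes, and whether these shares differ was not tested. The higher genes were Igf2 (404-fold in WT and 702-fold in cKO), Dlk1 (60.6-fold and 67.2-fold), Grb10 (4.82-fold and 6.16-fold), Asb4 (14.5-fold and 13.3-fold) and Ddc (40.6-fold and 168-fold). Asb4, a substrate receptor of ubiquitin ligases with ankyrin repeats, and Ddc, the decarboxylase that makes dopamine and serotonin, had UMIs in endothelial cells. Asb4 was at 35.1 and 4.67 CPM (37 and 2 UMIs) and Ddc at 30.3 and 42.0 CPM in endothelial cells, and both had 0 UMIs in mural cells of either library. Over all vascular cells Asb4 had 75 WT and 6 cKO UMIs. Of 148 Ddc UMIs in grouped WT cells, 32 were in endothelial cells and 74 in cells with both markers, and of 52 in cKO, 18 and 24. When cells needed 1000 genes and could hold no more than 5% mitochondrial UMIs (the stricter cell filter), only 2 genes were called higher in vascular cells.

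The genes lower in vascular cells were Snrpn (13.4-fold in WT and 10.7-fold in cKO), Ndn (10.2-fold and 9.83-fold), Nnat (14.5-fold and 17.7-fold), Mkrn3 (5.72-fold and 5.03-fold), Nap1l5 (log2 ratio -4.86 and -4.39) and Usp29. Mkrn3 and Nap1l5 each had 9 WT and 5 cKO UMIs in vascular cells. Usp29 had 2 UMIs in WT and 0 in cKO vascular cells against 1653 and 1291 in neural cells, and was at least 10.8-fold lower in cKO when 0 is set at 3 UMIs. Snrpn, Ndn and Mkrn3 lie in the same cluster of chromosome 7 and encode a splicing protein, a neuronal growth suppressor of the MAGE family and a RING finger protein. Ube3a, the ubiquitin ligase of that cluster, differed by 2.24-fold in WT and 1.23-fold in cKO and was not called. Meg3 was 2.82-fold and 2.89-fold lower over all vascular cells, whose mural and endothelial cells differed as given below. Nnat overlaps Blcap and Nap1l5 overlaps Herc3 on the opposite strand. Whether counting used strand, which would tell such reads apart, is not given in the sources used here. On the same strand, Snrpn overlaps Snurf and Gm38393, and Mkrn3 overlaps Gm32061, so strand cannot separate those genes. How many UMIs these overlaps touch was not tested.

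**Figure D3:**
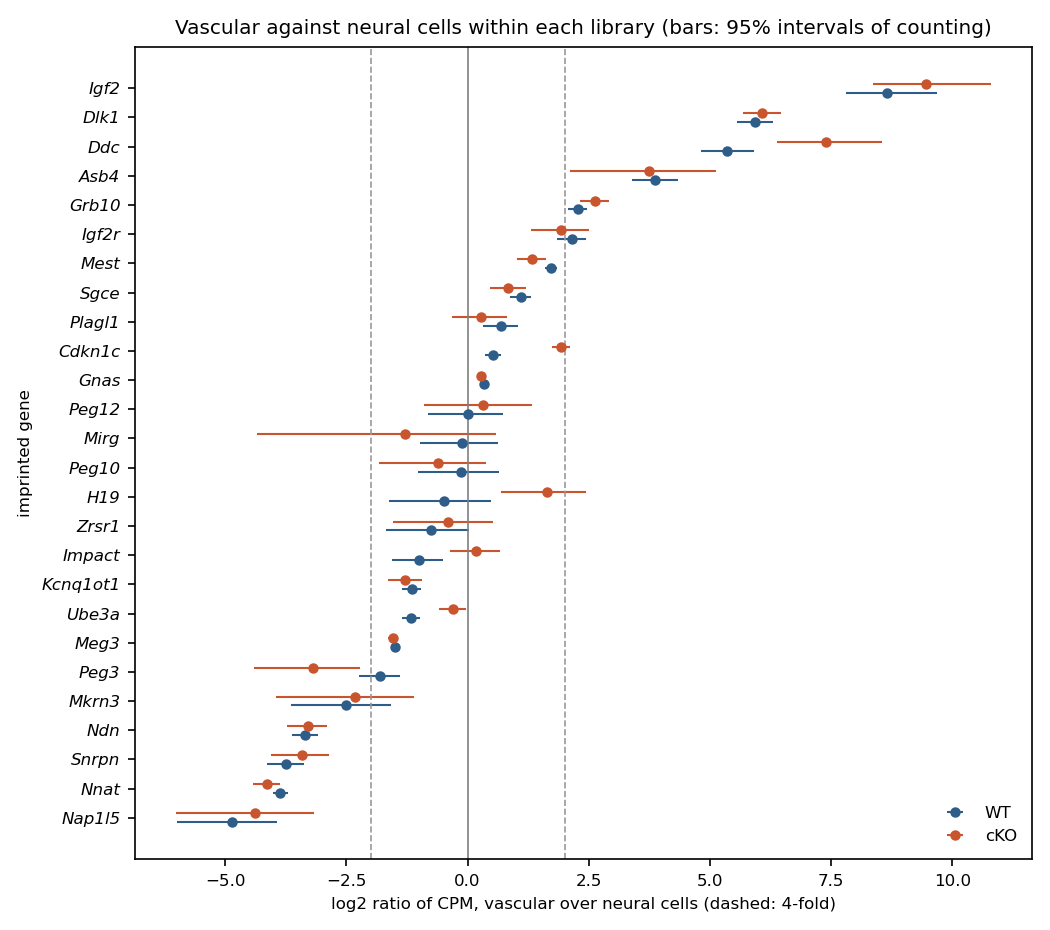
Log2 ratio of CPM in vascular over neural cells for each imprinted gene that had UMIs in vascular cells of both libraries, WT and cKO in separate colours, with 95% intervals of counting and dashed lines at 4-fold. Igf2 lies farthest to the right at 8.66 and 9.46, and Nap1l5 is at -4.86 and -4.39.

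Meg3, the maternally expressed long noncoding RNA of the Dlk1 cluster on chromosome 12, set neurons apart from progenitors and glia. It was at 7569 WT and 7763 cKO CPM in Cajal-Retzius cells, 4587 and 4244 CPM in GABAergic neurons and 1937 and 1649 CPM in projection neurons. In cycling progenitors it was at 317 and 194 CPM and in radial glia/astrocytes at 312 and 205 CPM. Mural cells were at 5037 CPM (4609 to 5494, 510 UMIs) and 3327 CPM (3000 to 3679, 379 UMIs), while endothelial cells were at 103 and 58.4 CPM, so within the vessel wall the gene went with mural cells in both libraries. After thinning to 1000 UMIs per cell, Meg3 was seen in 95.2% of WT and 90.0% of cKO mural cells and in 86.1% and 82.7% of GABAergic neurons. The shares were 10.5% in endothelial cells of both libraries and 23.1% and 8.33% in microglia/macrophages. How much of these shares is RNA carried over from other cells was not measured. Before thinning, all mural cells had a Meg3 UMI, as did 65.1% and 43.6% of endothelial cells and 67.9% and 45.8% of microglia/macrophages.

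Mirg, the transcript downstream of Meg3 that hosts a cluster of microRNAs, had far fewer UMIs, 257 in WT and 196 in cKO neural cells. It was at 13.4 and 9.47 CPM in GABAergic neurons and 4.67 and 3.49 CPM in projection neurons, against 1.53 and 1.73 CPM in cycling progenitors. The interval of Mirg holds 26 mature microRNAs in RefSeq, of which only 2 share a seed (bases 2 to 8, in capitals), at chr12:109735669-109735692 and chr12:109739132-109739152 (plus strand). They are printed to show what this host transcript carries, and mature microRNAs were not measured.
mmu-miR-453: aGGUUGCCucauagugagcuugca
mmu-miR-496a-5p: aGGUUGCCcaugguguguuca

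A comparison of projection and GABAergic neurons with cycling progenitors and radial glia/astrocytes, by the same 4-fold rule, was added after seeing the data. Of 26 imprinted genes tested, 3 were higher in neurons and 5 lower, while 6.55% of all genes tested were called higher in neurons and 11.6% lower. The 3 higher genes were Meg3 (8.21-fold in WT and 10.9-fold in cKO), Mirg (4.95-fold and 4.00-fold) and Usp29 (4.47-fold and 7.39-fold). Mirg had only 12 WT and 8 cKO UMIs in progenitors and glia, and its cKO log2 ratio had an interval of 0.99 to 3.24. With doublets kept, fewer genes were called higher in neurons, as given under processing below. The 5 lower genes were H19 (25.8-fold and 39.3-fold), Peg12 (16.5-fold in both), Grb10 (8.19-fold and 7.61-fold), Plagl1 (8.16-fold and 13.8-fold) and Mest (4.51-fold and 12.5-fold). Peg12, an intronless relative of the Wnt regulator FRAT, was at 22.9 and 33.9 CPM in cycling progenitors and 0.709 and 1.13 CPM in projection neurons.

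Several genes that were low in vascular cells also varied among neural groups. Snrpn was at 608 and 553 CPM in Cajal-Retzius cells, 390 and 298 CPM in GABAergic neurons and 81.5 and 66.0 CPM in radial glia/astrocytes. Ndn was at 908 and 1030 CPM in Cajal-Retzius cells and 319 and 369 CPM in radial glia/astrocytes. These orders were the same in both libraries. Nnat, a small membrane protein of developing neurons, was at 3408 and 3290 CPM in GABAergic neurons, 1630 and 1665 CPM in projection neurons and 624 and 621 CPM in radial glia/astrocytes, against 135 and 66.1 CPM in microglia/macrophages. Nap1l5, a nucleosome assembly protein-like retrogene, was at 387 and 452 CPM in OPC, 196 and 172 CPM in GABAergic neurons and 11.6 and 18.6 CPM in intermediate progenitors. Peg3, a zinc finger protein that is known to act in maternal care and growth, was at 149 and 209 CPM in Cajal-Retzius cells and 154 and 114 CPM in OPC, of which the WT intervals overlapped. Gnas, which encodes the stimulatory G protein subunit and is imprinted in few tissues, ranged from 851 CPM in WT microglia/macrophages to 2232 CPM in cKO ependymal cells. Kcnq1ot1, the antisense noncoding RNA of Kcnq1, was at 237 and 281 CPM in OPC and 74.9 and 37.4 CPM in endothelial cells. Sgce (epsilon-sarcoglycan) was at 34.8 and 31.7 CPM and Impact, a regulator of translation under stress, at 22.9 and 26.1 CPM over neural cells.

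The remaining genes had fewer UMIs. Zrsr1, a splicing factor retrogene, had 346 WT and 477 cKO UMIs in neural cells and Peg10, a retrotransposon-derived gene, 240 and 485. Magel2, the MAGE family neighbour of Ndn, had 61 and 69 neural UMIs and Zim1, a zinc finger gene beside Peg3, 59 and 40. Slc22a18 and Phlda2, which lie beside Cdkn1c, had 20 and 7 UMIs and 1 and 2 UMIs over all kept cells. Zim1 had 0 UMIs in vascular cells of both libraries, which allows no call at this depth.

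For the comparison of cKO with WT, a gene was called in a cell group where its CPM differed by at least 1.5-fold and the interval of the ratio left out no change, among genes with at least 20 UMIs over both libraries. In projection neurons 2 of 26 imprinted genes tested were higher in cKO and 3 lower, while 12.1% of 13475 genes were higher and 29.8% lower. In GABAergic neurons 1 of 27 was higher and 6 lower (13% and 25.9% of all genes). The counts were 0 higher and 5 lower of 17 in intermediate progenitors (12.9% and 18.7% of all genes), 0 and 6 of 22 in cycling progenitors (10.7% and 20.4%), 2 and 5 of 24 in radial glia/astrocytes (10.6% and 20.3%) and 2 and 2 of 19 in OPC (11.8% and 17.0%). In vascular cells 3 of 23 were higher and 4 lower (12.4% and 20.3%). The shares called higher were below those of all genes in the 6 neural groups and above in vascular cells, and the shares called lower lay on both sides. So many genes of every kind differed between the libraries that nothing particular to imprinted genes is read from the counts. The median log2 ratio of the imprinted genes ran from -0.50 in intermediate progenitors to 0.06 in OPC, against -0.19 in projection neurons to -0.02 in intermediate progenitors for all genes.

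**Figure D4:**
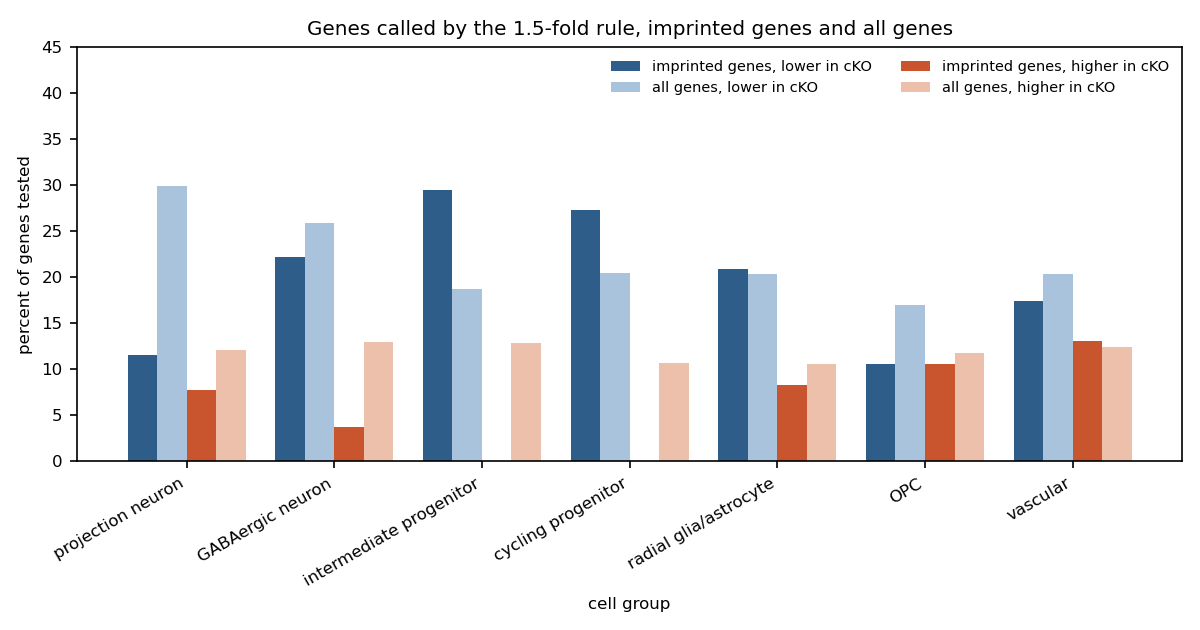
Percent of genes tested in each cell group that were called higher or lower in cKO than in WT by the 1.5-fold rule, for imprinted genes and for all genes. In projection neurons 7.69% of the imprinted genes were higher and 11.5% lower, against 12.1% and 29.8% of all genes.

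Of 27 imprinted genes tested in at least 2 of the 6 neural groups compared, 1 was higher in cKO in at least 2 groups and 7 were lower, where all genes gave 14.9% and 29.3%. A further 13 genes that were tested were called in no neural group, among them Nnat, Gnas, Snrpn, Ndn, Peg3 and Grb10. Mest was lower in cKO in 5 groups. It was at 34.3 WT and 11.7 cKO CPM in projection neurons (log2 ratio -1.55, interval -1.74 to -1.36) and at 44.7 and 11.0 CPM in GABAergic neurons (-2.03, -2.39 to -1.67). Radial glia/astrocytes were at 185 and 178 CPM (-0.06, -0.21 to 0.09, and 0.05 under TMM scaling). The ratios were -1.44 in intermediate progenitors, -1.47 in OPC and -1.40 in vascular cells, while that of -0.59 in cycling progenitors kept its call in only 2 of 8 other settings. The summed level of the 9 radial glia/astrocyte markers was 6259 WT and 2281 cKO CPM in OPC. In radial glia/astrocytes it was 25926 and 17422 CPM. The part of the radial glia/astrocyte share of OPC in the Mest ratio was not tested. Mest overlaps Copg2 on the opposite strand, and Copg2 was called lower in 4 neural groups.

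Ube3a, the ligase that is known to be silenced on the paternal copy in neurons, was also lower in cKO in 5 groups. It was at 216 and 113 CPM in projection neurons (log2 ratio -0.94), 248 and 152 CPM in GABAergic neurons, 178 and 108 CPM in intermediate progenitors, 112 and 68.9 CPM in cycling progenitors and 105 and 69.0 CPM in radial glia/astrocytes. Vascular cells, in which Tmem173 UMIs were also fewer in cKO, were at 89.0 and 93.2 CPM (0.07, -0.27 to 0.40). Projection and GABAergic neurons had 0 Tmem173 UMIs in both libraries, and any link between the 2 genes was not tested. TMM scaling moved the median log2 ratio of all genes from -0.19 to 0.00 in projection neurons and from -0.12 to 0.03 in GABAergic neurons. It ended the Ube3a calls in GABAergic neurons and radial glia/astrocytes and kept that in projection neurons. Over the 8 other settings the Ube3a ratio ran from -0.79 to -0.43 in GABAergic neurons. In radial glia/astrocytes it ran from -0.61 to -0.49. The stricter cell filter ended the Ube3a calls in intermediate progenitors, cycling progenitors and radial glia/astrocytes. The mean of each cell's CPM ended the call in GABAergic neurons. Only the call in projection neurons was kept under all 8 other settings. These 8 leave out the 2-fold threshold, which that call did not reach (1.92-fold).

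Meg3 was lower in cKO in 4 groups, which did not include projection or GABAergic neurons. The intermediate progenitor group, however, also took cells that passed the projection neuron gate. It was at 418 and 129 CPM in intermediate progenitors (-1.70, -1.98 to -1.42), and its ratio was -0.71 in cycling progenitors, -0.61 in radial glia/astrocytes and -0.73 in OPC. In projection and GABAergic neurons the ratios were -0.23 and -0.11, the latter 0.03 under TMM scaling, and no call was made. The summed level of the 8 projection neuron markers was also lower in cKO in these groups, as it was in projection neurons (2373 and 1782 CPM) and GABAergic neurons (88.1 and 55.0 CPM), at 1256 and 1047 CPM in intermediate progenitors, 80.0 and 62.3 CPM in cycling progenitors, 131 and 90.8 CPM in radial glia/astrocytes and 110 and 72.9 CPM in OPC. The summed level of the 9 GABAergic markers was lower in cKO in radial glia/astrocytes (42.8 and 21.7 CPM) and OPC (198 and 121 CPM), but not in intermediate progenitors (66.0 and 66.7 CPM) or cycling progenitors (463 and 501 CPM). In cycling progenitors the summed markers of OPC (983 and 478 CPM), radial glia/astrocytes (5269 and 3280 CPM) and ependymal cells (615 and 291 CPM) were also lower in cKO. Those of intermediate progenitors were not (303 and 328 CPM). The part of these marker levels in the Meg3 result, and in other calls in these groups, was not tested. Endothelial cells also had relatively fewer Meg3 UMIs in cKO, 109 of 1054850 UMIs in WT and 25 of 428222 in cKO. The same held for microglia/macrophages, with 84 of 524975 and 14 of 362941. Over all vascular cells the ratio was -0.17 (-0.29 to -0.05) and was not called. Library calls were not made in endothelial cells or microglia/macrophages alone, and the part of such a drop in the 4 calls was not tested. TMM scaling ended the Meg3 call in radial glia/astrocytes, as did keeping doublets. The stricter cell filter and a further required marker each ended the calls in radial glia/astrocytes and OPC, and the mean of each cell's CPM ended that in cycling progenitors. The call in intermediate progenitors was kept under all 8 other settings.

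Peg10 was the gene higher in cKO in more than 1 neural group. It was at 1.83 and 5.95 CPM in projection neurons (44 and 169 UMIs, 1.70, 1.21 to 2.21) and higher in GABAergic neurons (93 and 169 UMIs, 0.95, 0.58 to 1.33). The ratio was 1.80 in radial glia/astrocytes (17 and 56 UMIs) and 1.96 in OPC (12 and 28 UMIs). All 5 neural groups tested had a ratio above 0, and in cycling progenitors it was 0.53 (-0.04 to 1.10). Its neighbour Sgce, which is transcribed from the opposite strand away from Peg10, was called higher in no group and lower in intermediate progenitors (-1.34, -2.23 to -0.49, 35 and 19 UMIs).

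Other calls were made in fewer groups. Igf2r was lower in cycling progenitors (52 and 5 UMIs, -2.71, -4.39 to -1.40), in radial glia/astrocytes (-1.16) and in vascular cells (-0.90), and was below WT in all 4 neural groups tested. Usp29 was lower in intermediate progenitors (-1.46) and cycling progenitors (-0.88), neither under the stricter cell filter (-0.70 and -0.64). Kcnq1ot1 was lower in cycling progenitors (-0.72) and radial glia/astrocytes (-0.61). The former call was lost under the stricter cell filter and the mean of each cell's CPM. The latter was lost under TMM scaling, that mean and with doublets kept. Over the 8 other settings the ratio ran from -0.74 to -0.53 in the former group and from -0.74 to -0.50 in the latter. Plagl1 was higher in radial glia/astrocytes (309 and 529 UMIs, 0.86, 0.65 to 1.06) and Zrsr1 in projection neurons (159 and 301 UMIs, 0.68, 0.40 to 0.96). Cdkn1c went both ways, lower in radial glia/astrocytes (-1.63, -2.15 to -1.13) and GABAergic neurons (-0.73) and higher in OPC (1.57, 1.11 to 2.05) and vascular cells (0.95, 0.71 to 1.19). Over the 8 other settings its vascular ratio ran from 0.87 to 2.35. In GABAergic neurons, where Isl1 and Six3 were also lower in cKO while Ebf1 (-0.03) and Drd1 (0.24) were not, Asb4 (43 and 3 UMIs), Ddc (22 and 5) and Zim1 (16 and 5) were lower in cKO. One WT cell held 30 of the 43 Asb4 UMIs, and without the top cell of each library Asb4 (13 and 2 UMIs, -2.62, -5.81 to -0.47) and Zim1 (14 and 4, -1.72, -3.78 to -0.05) fell under the minimum of 20 UMIs and were no longer called. In vascular cells Asb4 (75 and 6 UMIs, -2.35, -3.85 to -1.16) and Peg3 (50 and 8 UMIs, -1.35) were lower and Impact (32 and 34 UMIs, 1.38, 0.64 to 2.12) was higher. Within endothelial cells, mural cells and cells with both markers, Cdkn1c and Impact had the higher value in cKO and Mest and Igf2r the lower in each, while Peg3 in mural cells (1 and 2 UMIs) did not follow its pooled ratio. H19 was lower in projection neurons (15 and 6 UMIs) and higher in vascular cells (9 and 13 UMIs), and both calls were lost without the top cell. Of 41 calls in all, 37 were kept without that cell. The stricter cell filter ended 23 of the 41, among them Peg10 in projection neurons (0.32), Mest in intermediate progenitors (-0.52), Ube3a in cycling progenitors (-0.47) and all vascular calls but those of Mest and Cdkn1c. Some of these ratios were about as large with fewer UMIs, such as Ube3a in intermediate progenitors (-0.82) and Impact in vascular cells (1.64). Calls kept under all 8 other settings, which leave out the higher thresholds, numbered 15. They included Mest and Ube3a in projection neurons, Meg3 in intermediate progenitors, and Cdkn1c in radial glia/astrocytes, OPC and vascular cells. Of those named, Ube3a in projection neurons (1.92-fold) and Cdkn1c in vascular cells (1.93-fold) were under 2-fold.

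**Figure D5:**
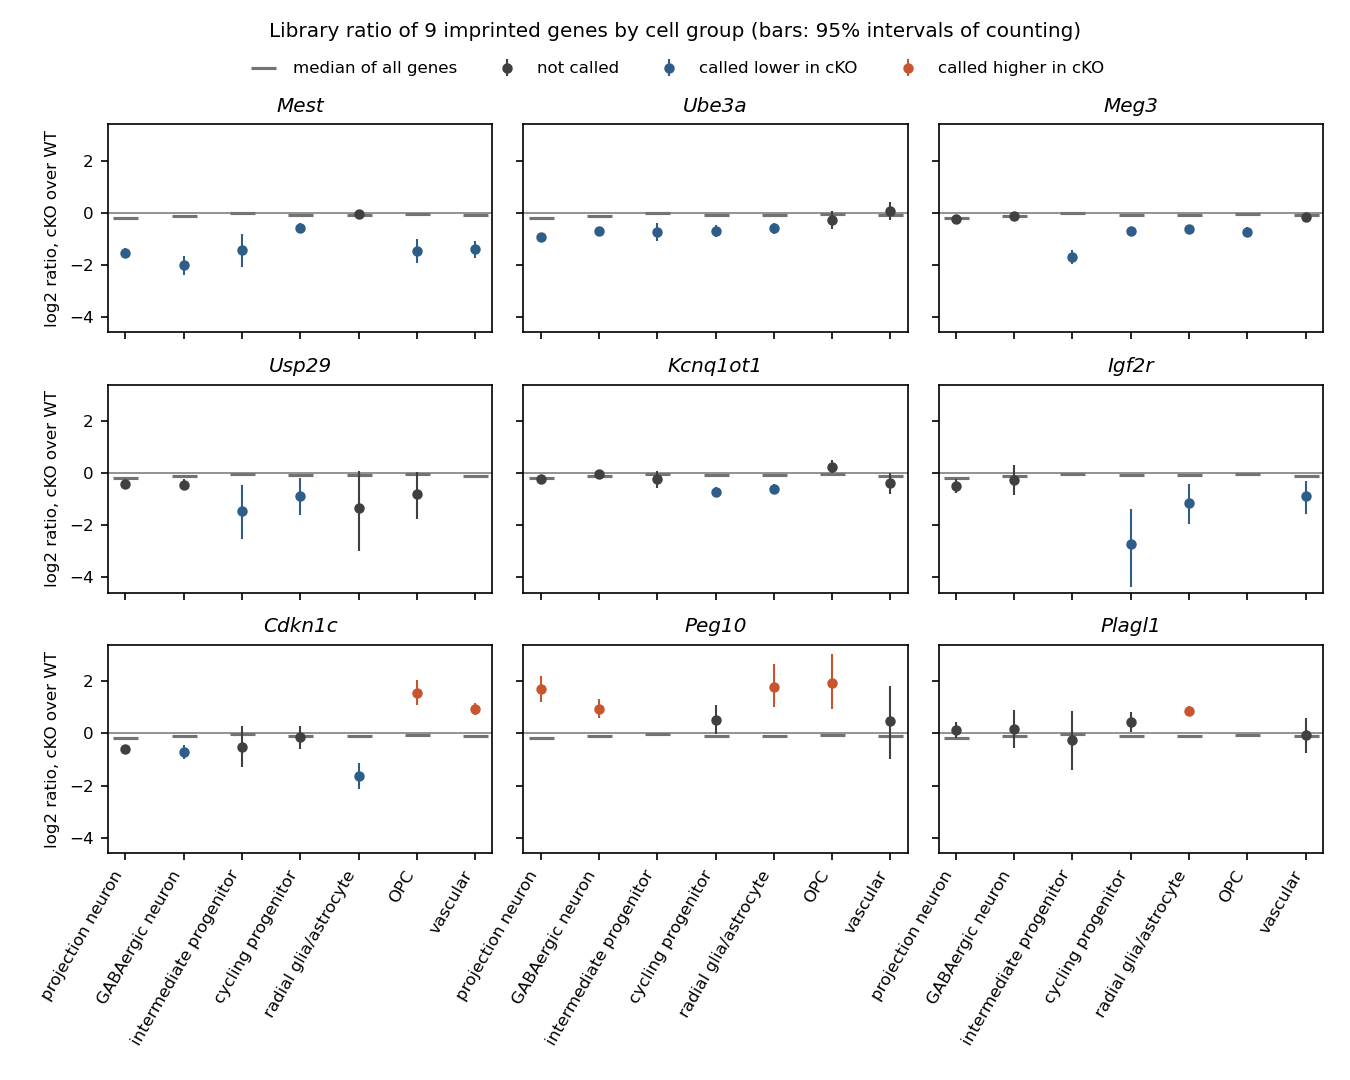
Log2 ratio of cKO over WT for 9 imprinted genes by cell group, with 95% intervals of counting and a short bar at the median ratio of all genes in that group. Mest runs from -2.03 in GABAergic neurons to -0.06 in radial glia/astrocytes, and Peg10 lies above 0 in each group drawn.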

How the data were processed

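The authors counted UMIs per gene and cell barcode with Cell Ranger and deposited raw counts for 1 WT and 1 cKO library. The submitters' notes name Cell Ranger 2, STAR, Seurat and mm9, while the deposited matrices carry Cell Ranger 3.0.1 in their headers. Positions here are those of GRCm38 and were matched by gene ID. The authors' table of cluster markers, which holds fold changes and p-values, was not used.

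Cells with at least 500 genes and at most 10% mitochondrial UMIs were kept. Of all barcodes, 35.9% in WT and 32.9% in cKO were over that mitochondrial limit. Kept projection neurons had a median of 6.44% WT and 7.23% cKO mitochondrial UMIs, above the 5% limit of the stricter cell filter. Radial glia/astrocytes had 3.90% and 3.86%. The automatic doublet threshold of Scrublet (scanpy 1.11.5) marked 165 WT and 0 cKO cells, so the top scores were left out at 0.8% per 1000 cells, 366 and 296 cells. UMIs were summed per group. CPM intervals are exact Poisson, ratios exact conditional binomial and shares Clopper-Pearson, all at 95% (Python 3.11.15, scipy 1.17.1), and cover counting error only. A count of 0 was set at 3 UMIs where a bound was needed, and a share of 0 cells was given the limit of 3 cells of the total. TMM factors came from edgeR 4.0.16 as an alternative scaling, with no test. Full values are given for genes with at least 100 UMIs in a group of either library. The intervals and the call rule were checked on simulated counts with counting error only. That check holds no variation between cells or libraries.

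The members, lists and rules were chosen with earlier results of these data known. The alternatives were other scalings, cell filters, doublet handling, marker gates, thresholds and the combined matrix. The 8 other settings given for library calls leave out the thresholds, which were 2-fold and 50 UMIs. The comparison of neurons with progenitors and glia, the values without the top cell and the split of mural cells by fibroblast markers were added after seeing the data.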

Additional observations from a re-analysis of the deposited data

Results flagged for a closer look

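Cdkn1c and H19 had library ratios of opposite direction in different cell groups. These differences between groups were not tested, since each genotype had 1 library. For Cdkn1c, the log2 ratio of cKO to WT was 1.57 in OPC and 0.95 in vascular cells, against -0.73 in GABAergic neurons and -1.63 in radial glia/astrocytes. The call in GABAergic neurons was lost under TMM scaling and the stricter cell filter. The ratio in vascular cells ran from 0.87 to 2.35 over the 8 other settings. For H19, the ratio was 1.82 in vascular cells and -1.56 in projection neurons. Without the top cell of each library these were 1.70 (-0.02 to 3.51, 6 and 8 UMIs) and -0.51 (6 and 5 UMIs), and neither was called.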

How the results depend on the processing

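None of the 41 called library ratios changed sign under an alternative that gave a value. Of the named ratios that were not called, 32 changed sign under at least 1 alternative, and TMM factors and the stricter cell filter accounted for 16 changes each. The stricter cell filter took the genes higher in cKO in at least 2 neural groups from 1 to 2. It took those lower in cKO in vascular cells from 4 to 2, of which only Mest was among the 4. Those higher in vascular than in neural cells went from 5 to 2. The mean of each cell's CPM also gave 2 genes higher in at least 2 neural groups. A 2-fold threshold left 2 of the 7 genes lower in at least 2 neural groups, and gave 7 in place of 3 genes higher in neurons than in progenitors and glia. Keeping doublets gave 1 in place of 3. Of 117 named ratios, TMM factors moved 26 beyond their counting interval, the mean of each cell's CPM 21, a further marker 10, no cell filter 7, kept doublets 4 and the combined matrix 0, and the stricter filter moved 55 of 111. The cause was not tested. No paired analysis was possible because each genotype had 1 library, and for the same reason no replicate could be left out. The mural values of Igf2 and Dlk1 rest on 44 to 72 UMIs.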

Other observations

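Of a second list of 56 imprinted genes, 52 were in the count tables. In vascular against neural cells, 7 of 39 tested were higher (17.9%) and 4 lower (10.3%), against 8.33% and 10.4% of all genes. Kcnq1, a potassium channel, had 77 WT and 18 cKO UMIs in vascular cells against 4 and 4 in neural cells (302-fold and 179.8-fold). Pon2, a paraoxonase, was at 331 and 489 CPM in vascular against 37.3 and 49.0 CPM in neural cells. Airn, the noncoding RNA antisense to Igf2r, was at 37.7 and 35.7 CPM against 2.79 and 4.29 CPM. Adam23, a neuronal surface protein, was 10.0-fold and 12.5-fold lower in vascular cells.

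Between the libraries, 4 of 34 genes of this list tested in at least 2 neural groups were higher in cKO in at least 2 (11.8%), and 11 were lower (32.4%), near the 14.9% and 29.3% of all genes. H13, a signal peptide peptidase, was at 71.8 WT and 142 cKO CPM in projection neurons (log2 ratio 0.99). Mcts2, a retrogene in an intron of H13, had 630 and 176 UMIs there (-2.08). The ratio of H13 was above 0 and that of Mcts2 below 0 in all 6 neural groups. In vascular cells they were 0.84 and -0.43.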
